A study of Mus musculus with 12 samples.

Results

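Atp8a1 and 7 further genes of the phospholipid flippase machinery were examined in mouse somatosensory cortex: Atp8a2, Atp9a, Atp9b, Atp10a, Atp11a, Atp11b and Tmem30a. They are 8 of the 24452 gene symbols in the count tables, and they hold 16 of the 35840 RefSeq transcripts listed there. Transcript counts were summed per symbol in each of 12 RNA-Seq libraries. All libraries came from the brains of male C57BL/6 mice at postnatal day 7 (P7), and the 4 groups of 3 libraries were WT saline, WT ethanol, p53 KO saline and p53 KO ethanol. WT mice carried an intact Trp53 gene, and p53 KO mice carried a germline targeted disruption of Trp53 (Trp53tm1Tyj), with both genotypes bred from heterozygous parents. Ethanol was given intraperitoneally as 2 injections of 2.5 g/kg, 2 hours apart, the saline groups received saline in its place, and cortex was taken 8 hours after the second injection. The deletion is present in every cell from conception, so a KO group differs from WT in its development as well as at the time of exposure. Atp8a1 was chosen by its expression in KO ethanol against KO saline, for which the study named it, and the other 7 are its relatives and partner subunit. Its values in every comparison with a KO group, and those of all 8 genes for ethanol against saline in KO mice, are therefore given as a description, with no test.

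Flippases of the P4-ATPase family use ATP to move phospholipids from the outer to the inner leaflet of cell and organelle membranes. They keep phosphatidylserine on the cytoplasmic side, and its appearance on the cell surface marks dying cells and synapses for removal by phagocytes. Most P4-ATPases work as a complex with a CDC50 subunit, of which Tmem30a (CDC50A) is the widely expressed form, whereas Atp9a and Atp9b work without it. Atp8a1 and Atp8a2 are the phosphatidylserine flippases best known from neurons, and Atp11a and Atp11b are relatives that act at the cell surface and on endosomes.

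In the mm10 annotation of the files, Atp8a1 lies on the minus strand at chr5:67618139-67847431. The files list 3 transcripts of it that share their ends and 35 coding exons. The differences lie in a pair of alternative 74-base exons at the same place in the transcript (exon 7) and in a 45-base exon (exon 15) that is present or left out. These exons are shown because they carry the whole difference in coding sequence between the transcripts into which the Atp8a1 count was divided. The sequences were read from the GRCm38 genome with GENCODE annotation, on the coding strand. In the alternative exons, capitals mark the 36 positions at which they differ, and 38 positions are identical. In the third sequence, capitals mark the exon, and the lower-case letters are the 15 bases of the neighbouring exon on each side.
NM_001284345 and NM_009727, exon 7, chr5:67780988-67781061: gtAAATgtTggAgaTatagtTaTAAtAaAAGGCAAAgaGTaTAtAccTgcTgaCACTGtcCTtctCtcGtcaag
NM_001038999, exon 7, chr5:67778960-67779033: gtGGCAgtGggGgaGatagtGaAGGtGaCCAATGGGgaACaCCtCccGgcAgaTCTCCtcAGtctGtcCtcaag
NM_001038999 and NM_001284345, exon 15, chr5:67756650-67756694: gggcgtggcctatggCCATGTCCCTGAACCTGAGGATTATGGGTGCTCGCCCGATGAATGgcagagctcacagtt
The first form of exon 7 has a GC content of 36.5% and the second 58.1%. Exon 15 adds 15 codons, so the coding sequence is 3492 bases with it and 3447 without it.

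Total counts ranged from 719735 to 17066392 per library, and the 8 genes together held 0.0615% to 0.144% of them. The names of 2 libraries, WT saline 3 and KO ethanol 12, open with another letter than those of the other 10, and these 2 were also the shallowest. The library labelled KO ethanol 12 held 532 counts of the 8 genes, 52 of them for Atp8a1. The total level of Trp53 did not separate the genotypes, at 3.67 to 26.2 normalized CPM (counts scaled to a common library size with TMM factors) in WT and 11.1 to 28.7 in KO libraries. The share of its count in transcript NM_001127233 was 7.01% to 23.1% in WT libraries and 48.3% to 70.6% in 5 KO libraries, but 7.01% of 14 counts in the library labelled KO ethanol 12, the same share as in 3 WT libraries. The 4 libraries with this same share held 14, 20, 51 and 78 counts of Trp53, so the genotype of the library labelled KO ethanol 12 could not be checked at this depth. Values without it and WT saline 3 are given beside the values with them. These fits keep 2 libraries in each of those groups, WT saline 1 and 13 and KO ethanol 10 and 18. Neuronal markers, taken as a sum, were high in every library. The sum of 5 markers (Rbfox3, Tubb3, Snap25, Syt1 and Map2) was 6001 to 7183 normalized CPM in WT saline and 3516 to 5368 in WT ethanol. In KO mice it was 4160 to 5802.5 with saline and 3516 to 7284 with ethanol. By this sum WT ethanol and KO saline both lay below WT saline without overlap, and its part in the results below was not tested. The sum does not speak for each marker: by transcript, the study lists Syt1 as higher in KO saline and in WT ethanol than in WT saline. The 4 interneuron markers (Gad1, Gad2, Slc32a1 and Dlx1) summed to 142 to 209 normalized CPM in WT saline, 346 to 408 in WT ethanol, 229 to 272 in KO saline and 165 to 315 in KO ethanol, so WT ethanol and KO saline both lay above WT saline without overlap, and their part in the results below was not tested. Red blood cell markers summed to 188 to 470 normalized CPM in WT saline, 287 in the library labelled KO ethanol 12 and 8.5 to 55.2 in the other 8 libraries. Choroid plexus markers ranged from 0.00 to 4942 normalized CPM, and all 3 of them (Ttr, Kcnj13 and Folr1) were at 0 in some library. In bulk tissue, fewer cells of a type and less RNA per cell cannot be told apart.

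In deposited RPKM, which the study describes as reads scaled to gene length and read total, Atp9a was the highest member. Atp9a had a median of 89.9 RPKM over the 12 libraries (57.6 to 170.8). It was followed by the subunit Tmem30a at 60.4 RPKM (32.6 to 156), Atp11b at 24.1 (2.94 to 81.9), Atp8a1 at 16.1 (9.99 to 22.4), Atp9b at 8.09 (3.15 to 14.3), Atp11a at 5.79 (1.69 to 7.77), Atp8a2 at 4.09 (1.997 to 5.80) and Atp10a at 0.355 (0.00 to 0.908). Each neighbouring pair in this order overlapped in range, except that Atp10a, a flippase of phosphatidylcholine, stayed below Atp8a2 in all 12 libraries. The order was the same when counts were divided by annotated transcript length. The deposited RPKM did not follow the counts by a common factor between libraries, so it is not a plain scaling for length and library size. From WT saline 1 to WT ethanol 4, Tmem30a went from 3199 to 5486 counts and from 74.7 to 102.6 RPKM. Atp10a went from 5 to 85 counts and from 0.199 to 0.544 RPKM. The reason was not tested. The members also differed in how steady they were between libraries. From the lowest to the highest library, normalized CPM spanned 2.47-fold for Atp8a1, 3.23-fold for Atp8a2, 3.88-fold for Atp9a, 4.62-fold for Tmem30a, 6.02-fold for Atp9b, 7.49-fold for Atp11a and 27.3-fold for Atp11b. The other members lie on other chromosomes than Atp8a1, with Atp8a2 at chr14:59647741-60086834, Atp9a at chr2:168634438-168742136, Atp9b at chr18:80734141-80934058, Atp10a at chr7:58658202-58829426, Atp11a at chr8:12757016-12868728, Atp11b at chr3:35754138-35856276 and Tmem30a at chr9:79768941-79793430 (mm10). Atp10a rested on 0 to 85 counts a library. Its count of 0 in the library labelled KO ethanol 12 allows up to 5.01 normalized CPM (3 counts, for counting error only), which is above its level in every library.

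**Figure D1:**
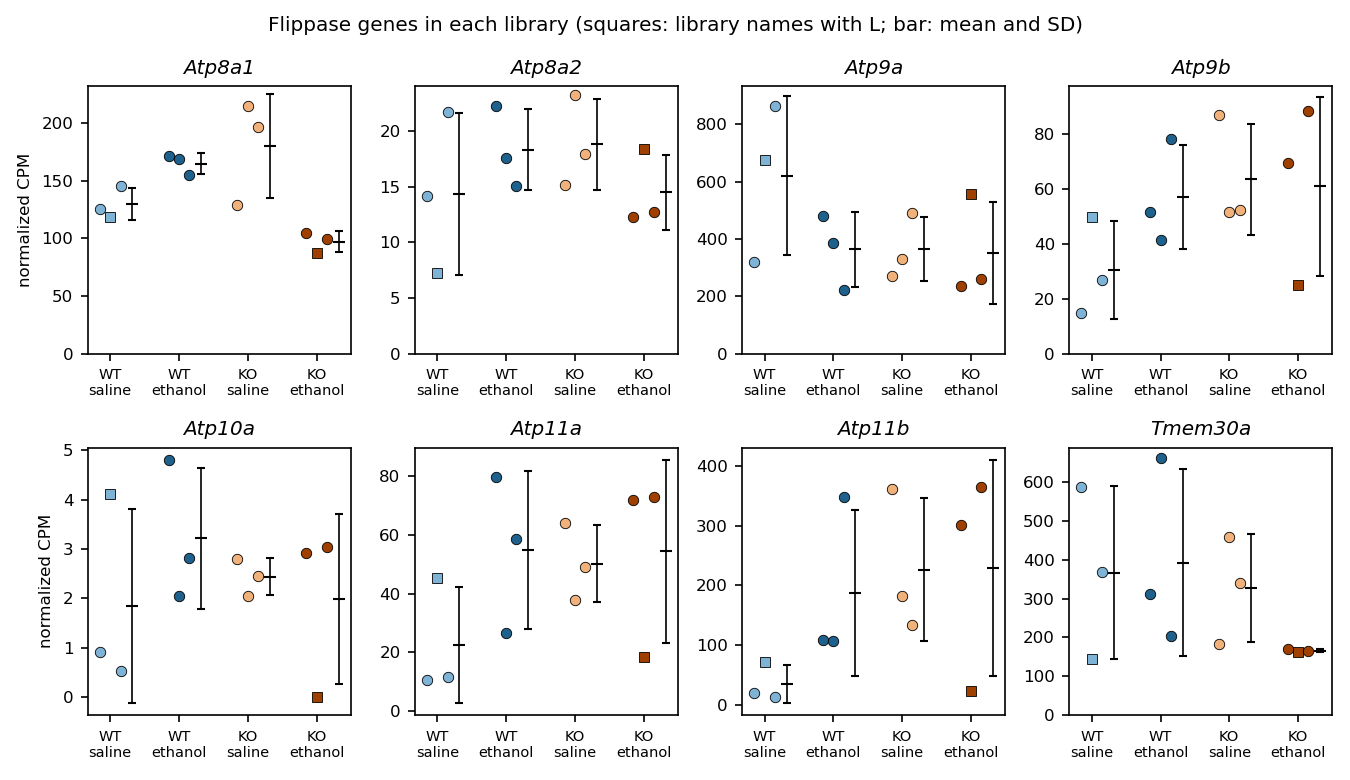
Normalized CPM (y axis, linear, a separate scale for each gene) of the 8 genes in each library, by group; bars show the group mean and SD of 3 libraries, and squares mark the 2 libraries whose names open with L. Atp8a1 sits between 86.9 and 104 in KO ethanol, below every other library, while Atp11b runs from 13.4 to 365.

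For Atp8a1, WT saline libraries held 125, 118 and 145 normalized CPM and WT ethanol libraries held 171, 169 and 155. KO saline libraries held 129, 215 and 196, and KO ethanol libraries held 104, 86.9 and 99.7. All 3 WT ethanol libraries were thus above all 3 WT saline libraries, and all 3 KO ethanol libraries were below the other 9. The group means (± SD, n = 3) were 130 ± 14.0 and 165 ± 8.89 for saline and ethanol in WT mice, and 180 ± 45.2 and 97.0 ± 9.03 in KO mice. KO saline had the widest spread, with KO saline 7 within the WT saline range. In KO mice the log2 fold change of Atp8a1 for ethanol against saline was -0.89 (SE 0.31), or 1.85-fold lower, and it lay between -1.04 and -0.74 when each library was left out in turn. Without WT saline 3 and the library labelled KO ethanol 12 it was -0.84 (SE 0.30). These values describe the comparison for which the gene was chosen.

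Atp8a1 was tested in WT mice, where its log2 fold change for ethanol was 0.35 (SE 0.31), a 1.27-fold higher level with an adjusted p of 0.551 by edgeR's quasi-likelihood test with Benjamini-Hochberg adjustment over 14739 genes. An exact permutation test of the 3 against 3 libraries gave the smallest p that the design allows, 0.1. The WT ethanol libraries lay above all WT saline libraries for 11.3% of all genes tested. The log2 fold change was 0.21 (SE 0.29) without the 2 libraries named above. It was -0.44 (SE 0.31) once the dependence of each library on transcript length and GC content was taken out as an offset. The median over all genes in that fit was -0.16. Atp8a1 has a mean transcript length of 7796 bases and a GC content of 44.8%. Genes over 5000 bases lay below genes under 1500 bases in all WT saline libraries, by 0.10 to 1.52 on the centred log2 scale. They lay above the short genes in all WT ethanol and KO saline libraries, by 0.06 to 0.90. The 0.10 was in WT saline 3, so fits without that library keep the 2 WT saline libraries with the larger values. The part of this trend in the result of this gene was not tested beyond that fit.

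The ethanol response of Atp8a1 pointed opposite ways in the 2 genotypes, higher than saline in WT and lower in KO mice, with no overlap in either. Such an opposite separation was seen for 169 of 14739 genes (1.15%), and Atp8a1 was chosen knowing its KO values, so no test of the difference is given. The difference of the log2 fold changes, KO minus WT, was -1.23 (SE 0.43), ranged from -1.35 to -1.09 when libraries were left out in turn, was -1.05 (SE 0.42) without the 2 libraries named above, and was 0.25 (SE 0.45) with the length and GC trend removed. With that trend removed, the KO ethanol value was also closer to 0, at -0.19 (SE 0.32). The medians over all genes in that fit were 0.14 for ethanol in KO mice and 0.25 for the difference. The difference of Atp8a1 there thus equalled that of the middle gene and is not read as a reversal. Between genotypes, Atp8a1 differed by 0.47 (SE 0.31, log2, KO minus WT) under saline, where the groups overlapped, and by -0.76 (SE 0.31) after ethanol, where they did not. Without the 2 libraries these were 0.35 (SE 0.29) and -0.70 (SE 0.30). With the trend removed they were -0.42 (SE 0.31) and -0.17 (SE 0.32), so the value under saline changed direction, beside medians of -0.16 and 0.14 over all genes.

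Atp11b, an endosomal flippase, showed the widest differences among the 8 genes. WT saline libraries held 20.03, 72.0 and 13.4 normalized CPM, and WT ethanol libraries held 108, 106 and 348. KO saline libraries held 362, 182 and 134, and KO ethanol libraries held 300.4, 23.4 and 365. All WT ethanol and all KO saline libraries lay above all WT saline libraries, and the 23.4 of the library labelled KO ethanol 12 lay within the WT saline range. Its log2 fold change was 2.45 (SE 0.86) for ethanol in WT mice, a 5.45-fold higher level with an adjusted p of 0.208 by edgeR (exact permutation test, p = 0.1). For KO against WT under saline it was 2.72 (SE 0.87), or 6.58-fold, with adjusted p = 0.176. Both comparisons use the same 3 WT saline libraries, so they are not independent. Neither passed the adjusted threshold of 0.05 in edgeR, whereas DESeq2 gave adjusted p = 0.060 for ethanol and 0.031 for genotype, in a test that called 3.33% and 4.89% of all genes. Without WT saline 3 and the library labelled KO ethanol 12, the WT saline reference rests on 2 libraries. Both values then passed in edgeR, with log2 fold changes of 3.42 (adjusted p = 0.009) and 3.70 (adjusted p = 0.005), but 21.5% and 25.3% of all genes passed as well. Without WT ethanol 14, the highest WT library, the ethanol value was 1.60, and without WT saline 13, the lowest, it was 2.05. With the length and GC trend removed, the values were 1.83 (adjusted p = 0.309 by edgeR) and 2.15 (adjusted p = 0.295). In KO mice the ethanol value was 0.04 (SE 0.80), and 0.56 without the library labelled KO ethanol 12. The difference between genotypes in the ethanol value was -2.41 (SE 1.16, adjusted p = 0.341 by edgeR). It was -2.89 (adjusted p = 0.113) without the 2 libraries and -1.45 (adjusted p = 0.676) with the trend removed.

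Atp11a, a flippase of the cell surface that caspases cleave in dying cells, pointed the same way as Atp11b. WT saline libraries held 10.7, 45.2 and 11.7 normalized CPM, WT ethanol 79.8, 26.5 and 58.7, KO saline 64.0, 37.8 and 49.0, and KO ethanol 71.9, 18.4 and 72.9. WT saline 3 was the exception within its group and overlapped with WT ethanol and KO saline. The log2 fold change for WT ethanol was 1.34 (SE 0.62, adjusted p = 0.267 by edgeR), and it was 1.20 (SE 0.61, adjusted p = 0.286) for KO against WT under saline. Without the 2 libraries named above these became 2.22 (adjusted p = 0.010) and 2.10 (adjusted p = 0.008), and with the length and GC trend removed 0.59 (adjusted p = 0.471) and 0.52 (adjusted p = 0.547). The ethanol value was 0.97 without WT ethanol 4, the lowest when libraries were left out in turn, and 2.24 without WT saline 3.

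For Atp9b, which needs no CDC50 subunit, WT saline libraries held 14.7, 49.9 and 26.9 normalized CPM, WT ethanol 51.7, 41.4 and 78.2, KO saline 86.9, 51.5 and 52.4, and KO ethanol 69.4, 25.1 and 88.5. KO saline lay above WT saline without overlap, by as little as 51.5 against 49.9. The log2 fold change for KO against WT under saline was 1.08 (SE 0.50, adjusted p = 0.252 by edgeR), and 0.52 (adjusted p = 0.518) with the length and GC trend removed. It passed without the 2 libraries named above, at 1.54 (adjusted p = 0.018), and was 0.74 without WT saline 1. For ethanol in WT mice it was 0.92 (SE 0.50, adjusted p = 0.327), and 1.38 (adjusted p = 0.033) without the 2 libraries. It was 0.57 without WT saline 1 and 0.38 (adjusted p = 0.617) with the trend removed.

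Its paralog Atp9a pointed the other way. WT saline libraries held 318, 676 and 865 normalized CPM, WT ethanol 481, 386 and 223, KO saline 272, 331 and 491, and KO ethanol 234, 555 and 262. WT saline held the 2 highest libraries, but its lowest overlapped with each other group. The log2 fold change for WT ethanol was -0.77 (SE 0.49, adjusted p = 0.398 by edgeR), and it was -0.76 (SE 0.49, adjusted p = 0.394) for KO against WT under saline. Neither passed the test. Without the 2 libraries named above they were -0.78 (adjusted p = 0.22) and -0.75 (adjusted p = 0.233), and with the length and GC trend removed they lay farther from 0 at -1.22 (adjusted p = 0.296) and -1.11 (adjusted p = 0.359). When libraries were left out in turn, the ethanol value ran from -1.12 without WT saline 1 to -0.45 without WT saline 13.

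The subunit Tmem30a varied widely in 3 groups and little in the fourth. WT saline libraries held 588, 143 and 369 normalized CPM, WT ethanol 311, 663 and 203, and KO saline 182, 459 and 340. KO ethanol libraries held 170.1, 162 and 164, which is 165 ± 4.17 (SD, n = 3) against SDs of 139 to 240.4 in the other groups. All KO ethanol libraries lay below all KO saline and all WT ethanol libraries, and above WT saline 3. The log2 fold change for ethanol in KO mice was -0.98 (SE 0.55), given without a test, and became -0.10 (SE 0.41) with the length and GC trend removed. For KO against WT after ethanol it was -1.25 (SE 0.55), with an adjusted p of 0.982 by edgeR, and it was -1.24 (adjusted p = 0.712) without the 2 libraries named above, -0.64 without WT ethanol 5 and -0.45 with the trend removed. In WT mice the ethanol value was 0.10 (SE 0.54, adjusted p = 0.939 by edgeR), and -0.37 (adjusted p = 0.615) without the 2 libraries.

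Atp8a2, the neuronal paralog of Atp8a1, ranged from 7.20 to 21.8 normalized CPM with saline and 15.1 to 22.3 with ethanol in WT mice, and from 15.2 to 23.2 and 12.3 to 18.4 in KO mice, so all groups overlapped. Its log2 fold change was 0.32 (SE 0.41, adjusted p = 0.692 by edgeR) for ethanol in WT mice, 0.36 (SE 0.41, adjusted p = 0.651) for KO against WT under saline and -0.43 (SE 0.43) for ethanol in KO mice, the last without a test. These became -0.05, 0.0018 and -0.61 without the 2 libraries named above, and -0.77, -0.76 and -0.02 with the length and GC trend removed, and none of those tested passed. Atp10a gave 1.11 (SE 0.80, adjusted p = 0.453) for WT ethanol against WT saline and 0.70 (SE 0.79, adjusted p = 0.643) for KO against WT under saline, from at most 85 counts. Without the 2 libraries, the Atp10a values were 2.15 (adjusted p = 0.032) and 1.75 (adjusted p = 0.057), and with the trend removed 0.47 and 0.12.

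**Figure D2:**
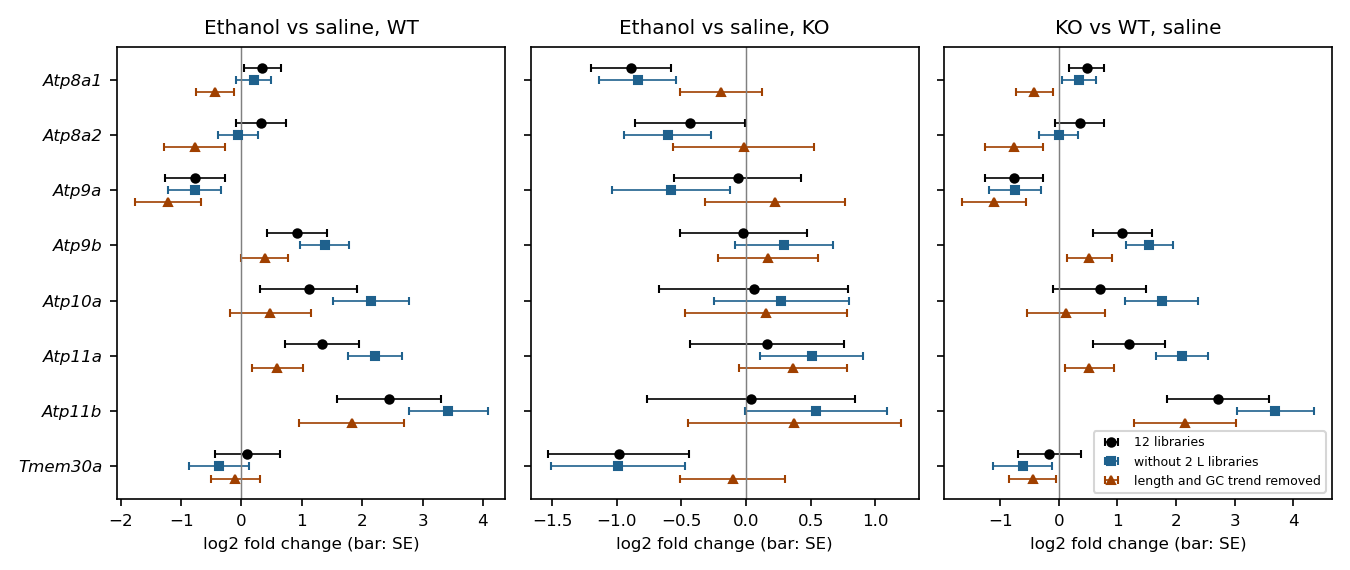
Log2 fold change (x axis, bars are SE) of each gene in 3 comparisons: with all 12 libraries (circles), without the 2 libraries whose names open with L (squares), and with each library's length and GC trend removed (triangles). Atp11b lies farthest from 0 in both panels that use WT saline, and for Atp8a1 the triangles sit at -0.44 in WT and -0.19 in KO mice.

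Over the whole table, 2 of the 8 genes had an unadjusted p under 0.05 for ethanol in WT mice (Atp11a and Atp11b), beside 18.3% of all 14739 genes, and none passed the adjusted threshold, beside 0.0746% of all genes. In 2 of the 8 (Atp8a1 and Atp11b) the WT ethanol libraries lay above WT saline without overlap, beside 11.3% of all genes. For KO against WT under saline, 2 of the 7 tested genes (Atp9b and Atp11b) had p under 0.05, beside 19.6%, and 0 passed after adjustment, beside 0.0543%. The same pair lay above WT saline without overlap, beside 12.9%. After ethanol, 1 of 7 (Tmem30a) had p under 0.05 for KO against WT, beside 3.24% of all genes, and it lay below WT ethanol without overlap, beside 8.69%. Atp8a1 also lay below WT ethanol without overlap, but nothing is read from this because its KO ethanol values chose it. For the difference between genotypes in the ethanol value, 0 of 7 had p under 0.05 by edgeR, beside 15.2%, and 1 of 7 (Atp11b) by DESeq2, beside 17.2%. Without WT saline 3 and the library labelled KO ethanol 12, 3 of 7 (Atp10a, Atp11a and Atp11b) had p under 0.05 for this difference by edgeR, beside 21.4% of all genes, and 0 passed after adjustment. In the same fit 4 of 8 genes (Atp9b, Atp10a, Atp11a and Atp11b) passed the adjusted threshold for ethanol in WT mice, beside 21.5%, and 3 of 7 (Atp9b, Atp11a and Atp11b) for KO against WT under saline, beside 25.3%. For ethanol in KO mice the same genes, Atp8a1 and Tmem30a, lay below KO saline without overlap, beside 6.87% of all genes, and nothing is read from this because the comparison chose Atp8a1. Counts this small over 7 or 8 genes are not a result about the flippase genes as a group. The median log2 fold change of the 8 genes was 0.63 for ethanol in WT mice and 0.58 for KO against WT under saline, beside 0.06 and 0.04 over all genes. With the length and GC trend removed, these medians were 0.14 and -0.15, beside -0.16 over all genes in both, so the distance from all genes shrank for ethanol and was near 0 for genotype.

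The 12 libraries could be ordered by Atp11b, and other members followed parts of that order across the groups. The 4 libraries highest for Atp11b were WT ethanol 14, KO saline 7, KO ethanol 10 and KO ethanol 18, at 300.4 to 365 normalized CPM. The same 4 held the 4 lowest Atp9a levels, 223 to 272 normalized CPM, and the 4 highest Atp9b levels, 69.4 to 88.5. At the other end, WT saline 1, WT saline 13 and the library labelled KO ethanol 12 held the 3 lowest levels of Atp11b (13.4 to 23.4), of Atp11a (10.7 to 18.4), of Atp9b (14.7 to 26.9) and of Atp10a (0.00 to 0.92). These 3 libraries were also the 3 in which long genes lay lowest against short genes, by 0.81 to 1.52 on the log2 scale, and their red blood cell markers summed to 212 to 470 normalized CPM against 8.5 to 188 in the other 9. The part of either in the levels of the flippase genes was not tested. Atp8a1 did not follow this order: it stood at 125 and 145 normalized CPM in 2 of the 3 lowest libraries and at 86.9 in the third.

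**Figure D3:**
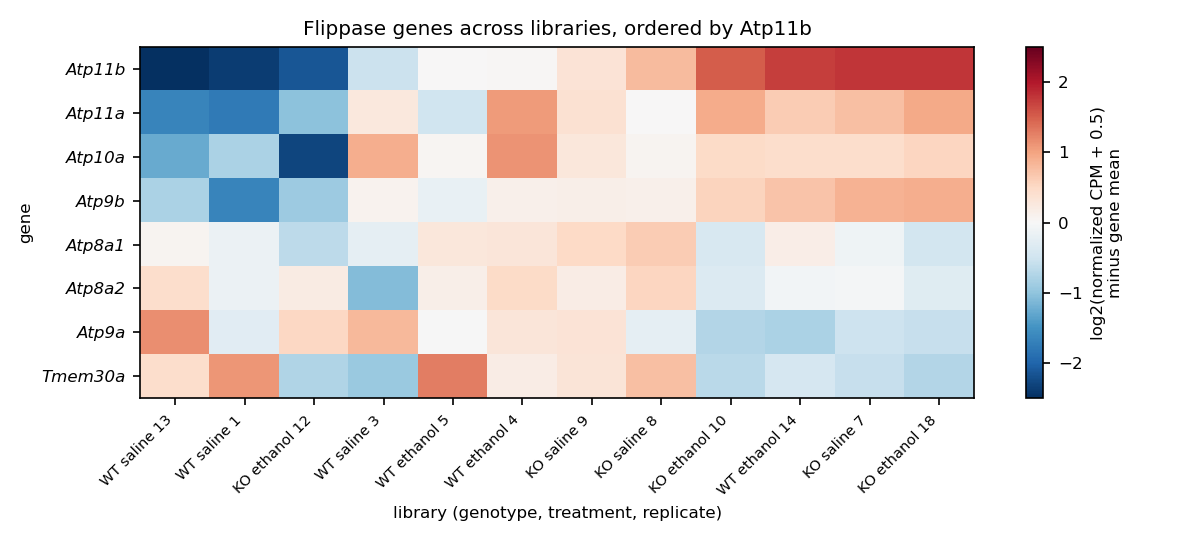
Heat map of log2(normalized CPM + 0.5) minus the mean of each gene (colour scale), with genes in rows and the 12 libraries in columns ordered by Atp11b. Atp11a, Atp10a and Atp9b are low in the 3 columns on the left, and Atp9a is lowest in the 4 columns on the right, which come from 3 of the 4 groups.

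The Atp8a1 count was divided by the authors' quantification among its 3 transcripts in nearly equal parts, with median shares of 34.3% for NM_001038999, 33.5% for NM_001284345 and 30.1% for NM_009727. The 2 transcripts with the 45-base exon took 61.9%, 67.9% and 69.4% of the count in WT saline and 71.6%, 70.1% and 75.8% in WT ethanol. They took 73.2%, 72.8% and 69.7% in KO saline and 71.0%, 60.4% and 67.0% in KO ethanol, the 60.4% resting on 52 counts. WT ethanol lay above WT saline without overlap, at 72.5 ± 2.95% against 66.4 ± 3.95% (SD, n = 3), and the exact permutation test gave 0.1, the smallest p that 3 against 3 allows. Among the 8115 transcripts of genes with several transcripts and at least 10 counts in every library, 26.4% had shares that did not overlap between these groups, so this separation is not particular to Atp8a1. The share with the second form of exon 7, which sets NM_001038999 apart, ranged from 29.3% to 43.3% within WT saline alone, which spans every other library. Reads were 75 bases long, so the transcripts can be told apart only by reads over these exons or their junctions.

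**Figure D4:**
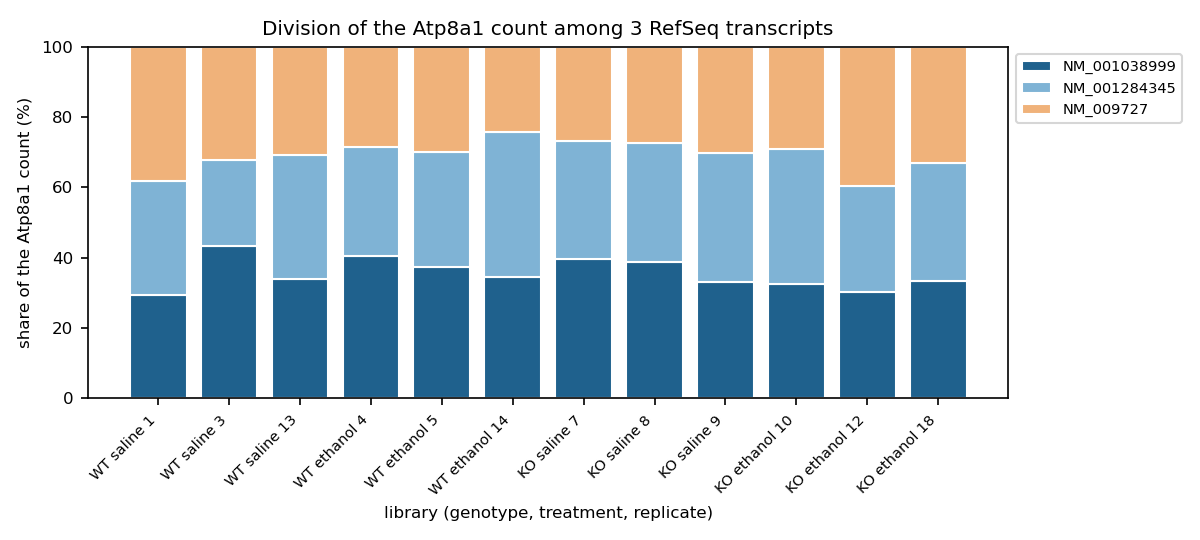
Stacked bars of the share of the Atp8a1 count (y axis, percent, from 0 to 100) assigned to each of its 3 RefSeq transcripts in each library. The 2 lower segments, which hold the 45-base exon, together reach 60.4% to 75.8%.

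Among the other members with several transcripts, Atp9a was divided mostly into NM_001289446 (58.5% to 71.4% of its count), and Atp9b into NM_001201569 (42.6% to 83.1%). The 4 transcripts of Atp11a shared its count unevenly. Of the 12 transcripts of these 4 genes, 7 had shares in WT ethanol that did not overlap with WT saline, and 7 had shares in KO saline that did not, beside 26.4% and 28.7% of the 8115 transcripts. The shares of 1 gene sum to 100%, so these counts are not independent. For ethanol in WT mice, NM_001293668 of Atp11a took 42.7 ± 9.84% against 21.5 ± 5.21% with saline (SD, n = 3), and NM_015804 of Atp11a took 16.5 ± 2.95% against 37.4 ± 9.08%. In WT saline 1 and WT saline 3, with 58 and 88 counts of Atp11a, these shares were identical at 24.5% and 42.7%. The saline SD of Atp11a therefore does not measure a spread of 3 separate divisions, and no response to ethanol is read from it. The main transcripts took 61.5 ± 2.24% against 70.1 ± 1.18% for Atp9a and 73.9 ± 2.78% against 66.2 ± 1.79% for Atp9b. Each of these 4 gave p = 0.1 in the exact permutation test, which any 3 against 3 without overlap gives, so the test adds nothing to the separation. Some divisions were the same in different libraries to within 0.01 percentage points. That of Atp11a was 21.6%, 24.5%, 42.7% and 11.3% in WT saline 1, WT saline 3 and the library labelled KO ethanol 12, and that of Atp9a was shared by WT saline 3 and the library labelled KO ethanol 12. Over the 66 pairs of libraries, 3.59% to 38.2% of genes with several transcripts had the same division in both (median 9.15%), with the highest share in the pair of WT saline 3 and KO ethanol 12. How reads shared between transcripts were divided is not given in the sources used here.

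The wider flippase and phosphatidylserine machinery was described from 6 further gene lists, in which 0 genes passed the adjusted threshold in edgeR in any of the comparisons. For ethanol in WT mice, counts at an unadjusted p under 0.05 stood beside 9.99% higher and 8.36% lower among all genes. Of the remaining P4-ATPases and CDC50 subunits, 7 of 10 were tested and 1 was higher: Atp8b2, a phosphatidylcholine flippase, went from 22.6 ± 13.1 normalized CPM in WT saline to 45.7 ± 3.43 in WT ethanol (SD, n = 3), with a log2 fold change of 1.04 (SE 0.46, adjusted p = 0.254 by edgeR). Of 13 flippase partners in endosomal sorting, 1 was higher and 2 were lower. These were Arfgef1, an exchange factor for Arf GTPases (log2 fold change 0.75), Rab11a, the GTPase of recycling endosomes (-1.15), and the retromer subunit Vps29 (-1.38). The adjusted p of these 3 genes was 0.252 to 0.270 by edgeR.

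Scramblases let phospholipids move both ways across the bilayer, and 17 of 19 were tested. For ethanol in WT mice 2 were higher and 2 lower at p under 0.05, among them Xkr4, a scramblase activated by caspases (log2 fold change 1.70, SE 0.50, adjusted p = 0.185 by edgeR), and Vmp1, a scramblase of the endoplasmic reticulum (-1.42, SE 0.55, adjusted p = 0.218). The floppases and lipid transporters were the list with the highest share, 5 of 12 higher and 0 lower. Its leading genes were Vps13c, a lipid transfer protein at organelle contacts, which went from 3.94 ± 1.32 to 17.7 ± 11.4 normalized CPM (2.11, SE 0.59, adjusted p = 0.178), and Abcg1, a cholesterol exporter (1.15, SE 0.42, adjusted p = 0.214). Their median log2 fold change was 0.82, and -0.02 with the length and GC trend removed, beside medians of 0.06 and -0.16 over all genes. Of 11 genes of phosphatidylserine synthesis, 1 was lower, Ptdss1, which makes phosphatidylserine from phosphatidylcholine (-1.14, SE 0.45, adjusted p = 0.225). Of 18 genes of phosphatidylserine recognition, 15 were tested and 3 were higher: the phagocytic receptors Mertk (1.53, SE 0.46, adjusted p = 0.185) and Tyro3 (1.05, SE 0.37, adjusted p = 0.208), and Dock1, a Rac activator in engulfment (1.42, SE 0.56, adjusted p = 0.221). DESeq2 gave an adjusted p under 0.05 for 1 gene each among the scramblases, the floppases and lipid transporters, and the recognition genes in this comparison, beside 3.33% of all genes. With the length and GC trend removed, 0 and 3 partners were higher and lower at an unadjusted p under 0.05, 1 and 3 scramblases, 1 and 0 floppases and lipid transporters, 0 and 2 synthesis genes and 1 and 3 recognition genes. Over all 14678 genes of that fit, 948 were higher and 1451 lower, or 16.3% in either direction.

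For KO against WT under saline, which shares the WT saline libraries, the counts at p under 0.05 were 1 higher and 0 lower for the remaining P4-ATPases and CDC50 subunits, 4 and 1 for partners, 2 and 2 for scramblases, 7 and 0 for floppases and lipid transporters, 0 and 1 for synthesis, and 2 and 0 for recognition, beside 9.14% higher and 10.5% lower among all genes. The genes named first were Atp8b2 (log2 fold change 1.06), Arfgef1 (1.08), Xkr4 (1.49), Vps13c (2.14), Ptdss1 (-1.12) and Tyro3 (1.00), each with the edgeR adjusted p between 0.176 and 0.234. Arfgef1 was accompanied by Dopey2 (0.91, adjusted p = 0.186) and Dopey1 (1.03, adjusted p = 0.221), large proteins of the trans-Golgi network. DESeq2 gave an adjusted p under 0.05 for 1 partner and 1 floppase or lipid transporter, beside 4.89% of all genes. For floppases and lipid transporters the median log2 fold change was 0.88, and 0.05 with the length and GC trend removed. With that trend removed, the counts higher and lower at an unadjusted p under 0.05 were 0 and 0 for the remaining P4-ATPases and CDC50 subunits, 0 and 2 for partners, 1 and 1 for scramblases, 1 and 1 for floppases and lipid transporters, 0 and 2 for synthesis and 0 and 2 for recognition. Over all 14678 genes of that fit, 775 were higher and 1370 lower, or 14.6% in either direction. Without WT saline 3 and the library labelled KO ethanol 12, edgeR gave an adjusted p under 0.05 for 1, 3, 3, 2, 3 and 2 genes of the lists in the same order for ethanol in WT mice and for 3, 6, 5, 3, 3 and 2 for genotype under saline, where 21.5% and 25.3% of all genes passed. After ethanol, KO against WT had unadjusted p under 0.05 for 1 higher gene among the remaining P4-ATPases and CDC50 subunits, for 1 lower gene each among scramblases, floppases and lipid transporters, and synthesis genes, and for 2 lower recognition genes, beside 3.24% of all genes. For the difference between genotypes in the ethanol value, 5 of 12 floppases and lipid transporters, 2 recognition genes, 1 partner and 1 scramblase were lower at an unadjusted p under 0.05, beside 15.2% of all genes in either direction. The median of the floppases and lipid transporters was -0.98 there, beside -0.11 over all genes, but 0.11 with 0 of 12 genes lower once the length and GC trend was removed. In that fit 2 partners, 2 scramblases, 2 synthesis genes and 1 recognition gene were higher for this difference, and 2 scramblases were lower. Over all 14678 genes of that fit, 948 were higher and 429 lower, or 9.38% in either direction, and the median was 0.25.

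Among the genes whose profile over the 12 libraries was nearest to that of Atp8a1, by the root mean square difference of centred log2(normalized CPM + 0.5), were Nr2c2 (0.163), Agps (0.169), Cpd (0.171) and Phf20 (0.176), beside a median of 0.721 over 14738 genes. Agps, an enzyme of ether lipid synthesis, stood at 63.8 ± 12.3 (saline) and 71.4 ± 8.06 (ethanol) normalized CPM in WT mice, and at 81.6 ± 31.5 and 47.3 ± 1.00 in KO mice (SD, n = 3). Among the flippase genes the nearest to Atp8a1 was its paralog Atp8a2, at rank 1024 (0.398), followed by Tmem30a at rank 4058 (0.574), and the farthest was Atp11b at rank 14534 (1.61).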

How the data were processed

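Stranded RNA libraries (75-base reads) were made from P7 somatosensory cortex, 3 per group, with total counts of 719735 to 17066392. The authors aligned the reads to mm10 with Bowtie2 in TopHat and quantified RefSeq transcripts in Partek, and deposited estimated counts per transcript, which include fractions because reads shared by transcripts were divided, and are not scaled for library size. The authors also deposited RPKM values per transcript, which did not follow the counts by a common factor between libraries. Counting settings are not given in the sources used here. The study took cortex by laser dissection at first and by hole punch later, and the labels do not assign either method to a library.

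Counts were summed per gene symbol, rounded, and tested with edgeR 4.0.16 (filterByExpr, TMM, quasi-likelihood test, two-sided, Benjamini-Hochberg over 14739 genes) in 1 model of 4 groups. Levels are normalized CPM, or RPKM summed per symbol. Fits were tested on simulated data. Alternatives were DESeq2 1.42.0, limma 3.58.1 on log2(RPKM + 1 or 0.1), other filters and scalings, a spline of 5 degrees of freedom on length and GC content as an offset, and fits without libraries. Nothing in the labels says that libraries of a group came from separate litters, so p-values measure only the spread between these libraries. The floor given for Atp10a covers counting error only. The genes, lists and tests were chosen with earlier results of these data known. All 8 genes were named, with up to 3 genes of each list by smallest p and the 5 genes nearest to Atp8a1 in profile, of which 1 is not reported here.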

Additional observations from a re-analysis of the deposited data

Results flagged for a closer look

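The ethanol response of Atp8a1 was flagged because the libraries of the 2 genotypes moved in opposite directions, though its KO values were those that chose it. Its log2 fold change for ethanol against saline was 0.35 (SE 0.31) in WT mice, where all 3 ethanol libraries lay above all 3 saline libraries, and -0.89 (SE 0.31) in p53 KO mice, where all 3 ethanol libraries lay below. The WT value had an adjusted p of 0.551 by edgeR, and 11.3% of all genes had WT ethanol above WT saline without overlap. The difference was not tested, since the gene had been chosen for its KO values. With the length and GC trend removed both values were negative, at -0.44 (SE 0.31) in WT and -0.19 (SE 0.32) in KO mice, so they no longer pointed opposite ways. The medians over all genes in that fit were -0.16 in WT and 0.14 in KO mice, so both values lay below them.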

How the results depend on the processing

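Over all genes, the 12-library edgeR fit called 11, 0, 8, 0 and 0 genes at an adjusted p under 0.05, and 2704, 465, 2890, 477 and 2237 at an unadjusted p under 0.05, for ethanol in WT, ethanol in KO, KO against WT under saline, KO against WT after ethanol, and the interaction (the ethanol value in KO minus that in WT mice). No paired analysis was possible because the groups share no library number. Without the 2 libraries whose names open with L, 3220, 3782 and 10 genes passed the adjusted threshold for WT ethanol, KO saline and the interaction, and 5582, 5863 and 950 the unadjusted one for WT ethanol, KO saline and KO after ethanol. DESeq2 called 488, 2, 717, 3 and 255 genes in the order of the 5 comparisons. With no filter beyond 1 count in any library, 21 genes passed for WT ethanol and 7 for the interaction. With at least 10 counts in every library, 2 passed for KO saline, and 1524, 308, 1781, 264 and 1491 were under the unadjusted threshold. Library sizes without TMM factors gave 2 for WT ethanol and 4 for KO saline. The first letter of the library name as a covariate gave 0 for each of them and 229 at an unadjusted p for KO ethanol, and a fit to the compared groups alone gave 0 for each. With limma on log2(RPKM + 1), 0 genes passed for either, and 1720 and 1796 were under the unadjusted threshold. On log2(RPKM + 0.1) limma called 2, 3 and 1 for WT ethanol, KO saline and the interaction, with 1640 and 1688 at an unadjusted p for the first 2. With the length and GC trend removed, 5 passed for WT ethanol, and 185 and 1377 were under the unadjusted threshold for KO ethanol and the interaction.

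Leaving out each library in turn gave 0 to 1151 calls and 1417 to 4751 genes at an unadjusted p for WT ethanol, 0 calls and 48 to 1141 for KO ethanol, 0 to 2177 and 1647 to 5039 for KO saline, 0 to 3 and 274 to 739 for KO after ethanol, and 0 to 3 and 1473 to 3538 for the interaction. The causes were not tested.

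Library sizes without TMM factors moved the median log2 fold change of all genes to 0.49 for both WT ethanol and KO saline and to -0.52 for the interaction, and removing the length and GC trend moved it to -0.16, -0.16 and 0.25. The share of genes under the unadjusted threshold that were higher went from 54.4% to 89.4% for WT ethanol, from 46.6% to 84.3% for KO saline and from 49.4% to 19.2% for the interaction without TMM factors. With the trend removed these shares were 39.5%, 36.1% and 68.8%, and those for KO ethanol and KO after ethanol went from 36.3% to 72.4% and from 30.2% to 55.5%. They were 55.0% and 41.5% with RLE factors, and 56.8% and 43.7% in DESeq2.

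Among the 8 genes, 67 of 947 alternative values changed sign, 33 of them for values with a test. For WT ethanol these were Atp8a1 with the trend removed (-0.44), Atp8a2 without the L libraries (-0.051) and with the trend removed (-0.77), and Tmem30a with the letter as a covariate (-0.041), without the L libraries (-0.37) and with the trend removed (-0.10). For KO saline they were Atp8a1, given without a test, with the trend removed (-0.42), Atp8a2 with the trend removed (-0.76), Atp10a in limma on log2(RPKM + 1) (-0.00011), and Tmem30a without TMM factors (0.41) and in limma with either pseudocount (0.64 and 0.65). For KO after ethanol they were Atp9a with RLE factors (0.0066), in DESeq2 (0.0055), with the trend removed (0.33) and by its main transcript (0.066), and Atp11a with the letter as a covariate (-0.028) and by its main transcript (-0.35). For the interaction it was Atp8a2 with the trend removed (0.75). The interaction of Atp8a1, which has no test, also changed sign there (0.25), where the median over all genes was 0.25 as well. The other 32 were for ethanol in KO mice, also without a test, among them Atp9a and Atp9b with the trend removed (0.22 and 0.17), Atp9b without the L libraries (0.29), and Atp10a and Atp11b in limma on log2(RPKM + 1) (-0.15 and -0.37). When libraries were left out in turn, the ranges that crossed 0 were -0.032 to 0.75 for Atp8a2 and -0.52 to 0.58 for Tmem30a in WT ethanol, -0.58 to 0.33 for Tmem30a in KO saline, and -0.55 to 0.22 for Atp9a, -0.18 to 0.49 for Atp9b, -0.60 to 0.11 for Atp10a, -0.30 to 0.41 for Atp11a and -0.16 to 1.17 for Atp11b in KO after ethanol, and, in KO ethanol against KO saline, -0.56 to 0.23 for Atp9a, -0.36 to 0.31 for Atp9b, -0.16 to 0.29 for Atp10a, -0.07 to 0.53 for Atp11a and -0.44 to 0.58 for Atp11b. None of the tested values among these had passed the adjusted threshold in the fit to all libraries. A further 12 values passed a threshold that they had missed.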
